A study of Homo sapiens with 6 samples.

Results

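NRF2, the transcription factor encoded by NFE2L2, controls the genes with which a cell answers oxidative and electrophilic stress. Its partner KEAP1 holds it in the cytoplasm and passes it to degradation, and when KEAP1 is modified by electrophiles NRF2 enters the nucleus, pairs with a small MAF protein and binds antioxidant response elements in its targets. The products of those targets make and recycle glutathione and thioredoxin, store iron, supply NADPH and detoxify reactive carbonyls and quinones. The aldo-keto reductases AKR1C1, AKR1C2 and AKR1C3, which reduce steroids and lipid aldehydes, are widely used to read NRF2 activity, and high NRF2 activity is known for its association with platinum resistance in cancer cells. The genes described here are 37 members of this pathway, taken from a list of symbols and grouped by role. All 37 were found among 60649 gene rows, and all 37 were among the 22038 genes that passed the filter on low counts.

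The cells were OVCAR5, an established human ovarian cancer line. METTL3, the catalytic subunit of the enzyme that writes the m6A mark on mRNA, was overexpressed from a lentivirus in 3 libraries, and 3 vector control libraries came from cells carrying the empty lentivirus. Both groups were stable lines selected with puromycin, whether as pools or clones is not given in the sources used here, and the labels name no cisplatin or other drug for them. One part of the labels calls the controls parental and another gives them the empty vector. The libraries were poly(A)-selected mRNA, and nothing says that the 3 libraries of a group came from separate cultures. The p-values therefore rest on the spread between these libraries, which may be technical, and on spread shared over genes. The comparison asks whether RNA levels of NRF2 pathway genes differed when METTL3 was overexpressed.

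METTL3 itself checked the labels. Levels are given in CPM, the count as parts per 1000000 of the TMM-scaled library total, and always in the order of replicates 1, 2 and 3. The METTL3 transcript stood at 152.4, 165.5 and 175.3 CPM with METTL3 and 80.6, 68.6 and 71.6 CPM with the vector. Over the 6 libraries its log2 fold change was 1.16 (SE 0.117, adjusted p = 0.072, by the quasi-likelihood test of edgeR). Library totals lay between 96633925 and 125463386 counts. The epithelial markers were high, with KRT8 at 3131 to 5153 CPM and EPCAM at 246.8 to 483.2 CPM, and all 6 of that list passed the filter. Of the leukocyte markers, PTPRC and CD3E did not pass and CD14 was at 7.02 to 11.4 CPM. Of the fibroblast markers, COL1A2 and DCN did not pass, COL1A1 was at 8.04 to 18.1 CPM and PDGFRB at 0.771 to 2.76 CPM. The endothelial markers passed at low levels, PECAM1 at 4.67 to 21.4 CPM and CDH5 and VWF at no more than 0.443 and 0.284 CPM. Of the ovarian carcinoma markers, WT1 did not pass, PAX8 was at 6.38 to 11.7 CPM and MUC16 at 1.98 to 49.5 CPM, and the sum of the list was 12.3 to 61.1 CPM with METTL3 and 8.36 to 13.7 CPM with the vector.

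Replicate 1 of both groups stood apart from replicates 2 and 3. Deviations from the group means correlated at 0.334 between the 2 libraries numbered 1 and at -0.286 to -0.191 between either of them and the libraries numbered 2 or 3 of the other group. Deviations within a group cancel, so the negative values follow in part from the positive one. Counts of calls, and the genes given library by library, are therefore reported over 6 libraries and again over the libraries numbered 2 and 3 alone, a choice made with earlier results of these data known. In these bulk libraries, fewer cells expressing a gene and less RNA per cell cannot be told apart.

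The antioxidant response element was searched for by its core TGACNNNGC, on both strands, in windows from 250 bases before to 50 bases after each RefSeq start (GRCh38.p14). Of the 37 genes, 29 had a window, and 12 of these 29 (41.4%) held at least 1 match, beside 18.98% of the 13349 tested genes with a window and 16.06% of all 27305 genes with one. By windows the share was 32.5% of their 40, beside 13.35% of all 35116. The 37 were listed for their place in the NRF2 pathway, so a higher share may follow from that choice and is no separate result. The genes with no window in the table were AKR1B10, SLC7A11, GSS, GSR, PRDX1, HMOX1, FTH1 and CBR3. The matches of 4 genes that differed between the groups in replicates 2 and 3, and those of 3 genes of contrasting role, are printed with 10 bases on either side. Capitals mark the core, and each sequence is read 5′ to 3′ on the strand that holds TGAC.
GCLM (chr1:93909446-93909474, + strand): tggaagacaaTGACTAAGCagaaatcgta
GPX2 (chr14:64942849-64942877, + strand): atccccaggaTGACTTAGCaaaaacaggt
PGD (chr1:10398853-10398881, - strand): agcacctagaTGACATTGCcccggcgagg
CBR1 (chr21:36069855-36069883, - strand): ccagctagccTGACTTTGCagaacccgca
KEAP1 (chr19:10502784-10502812, + strand): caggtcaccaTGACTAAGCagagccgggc
TXNRD1 (chr12:104215670-104215698, + strand): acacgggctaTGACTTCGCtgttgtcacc
GSTP1 (chr11:67583736-67583764, + strand): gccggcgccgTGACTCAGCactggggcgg
The core lay 34 to 26 bases before the RefSeq start in GCLM, 122 to 114 in GPX2, 201 to 193 in PGD, 159 to 151 in CBR1, 31 to 23 in KEAP1, 99 to 91 in TXNRD1 and 66 to 58 in GSTP1. GCLM and KEAP1 shared the same core letters. KEAP1 and TXNRD1 held more than 1 match, of which 1 is shown for each. The core of GSTP1 contains TGACTCA, the AP-1 motif, from which this search does not separate it. The windows of AKR1C1, AKR1C2, AKR1C3, NFE2L2 and NQO1 held none, which says only that these letters were not in this stretch. GCLM and PGD were higher with METTL3 in replicates 2 and 3 and GPX2 and CBR1 were lower, so a match was found on both sides.

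Over 6 libraries, none of the 37 genes passed the test. edgeR called 0 of 37 at an adjusted p under 0.05, with 0% of all 22038 genes called, and the adjusted p of the 37 lay between 0.438 and 0.995. At an unadjusted p under 0.05 there were 3 of 37 (8.11%), SLC7A11 and FTH1 higher and CBR1 lower with METTL3, beside 8.3% of all genes tested. The groups did not overlap for 6 of 37 (16.2%), beside 17.4% of all genes. KEAP1, SLC7A11, GSR and FTH1 lay above the controls, and FTL and CBR1 lay below them. DESeq2 called FTH1 alone (adjusted p = 0.031), 1 of the 36 genes to which it gave an adjusted p, beside 1.63% of all genes, and without the filter on low counts its adjusted p for FTH1 was 0.101. The counts of the 37 genes were thus near those of all genes. Their median log2 fold change was -0.049, beside -0.019 over all genes tested. Of the 37, 16 were higher (43.2%, beside 47.3% of all genes) and 21 lower.

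With any 1 of the 6 libraries left out, edgeR called 0 of 37, beside 0 to 367 of all genes. Over replicates 2 and 3, without both libraries numbered 1, it called 8 of 37 (21.6%), beside 15.2% of all 22046 genes tested. The 4 higher with METTL3 were SLC7A11, GCLM, FTH1 and PGD (10.8%, beside 6.66% of all genes), and the 4 lower were AKR1C2, AKR1C3, GPX2 and CBR1 (10.8%, beside 8.59%). DESeq2 called the same 8 and KEAP1, 9 of 36 (25%), beside 19% of all genes. With the replicate number as a block in those 4 libraries, 14 of 37 (37.8%) were called, beside 24.7% of all genes. The 6 added to edgeR's 8 were KEAP1, GSR, GCLC and BLVRB, which were higher, and FTL and UGDH, which were lower. Those 4 libraries leave the blocked fit little from which to estimate each gene's spread. Its p-values rest on spread shared over genes and do not measure that of each gene between libraries. The labels do not state the pairing it assumes. The unblocked fit of those 4 libraries also leans on spread shared over genes. Its small adjusted p-values therefore do not measure each gene's own spread between libraries either. The median log2 fold change of the 37 was 0.041, beside -0.003 over all genes. Of the 37, 24 were higher (64.9%, beside 49.4% of all genes) and 13 lower. The pathway therefore held members on both sides, and its median turned sign with the libraries used. The shares of all genes that were higher, 47.3% over 6 libraries and 49.4% over replicates 2 and 3, also stand beside the counts by role below.

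**Figure D1:**
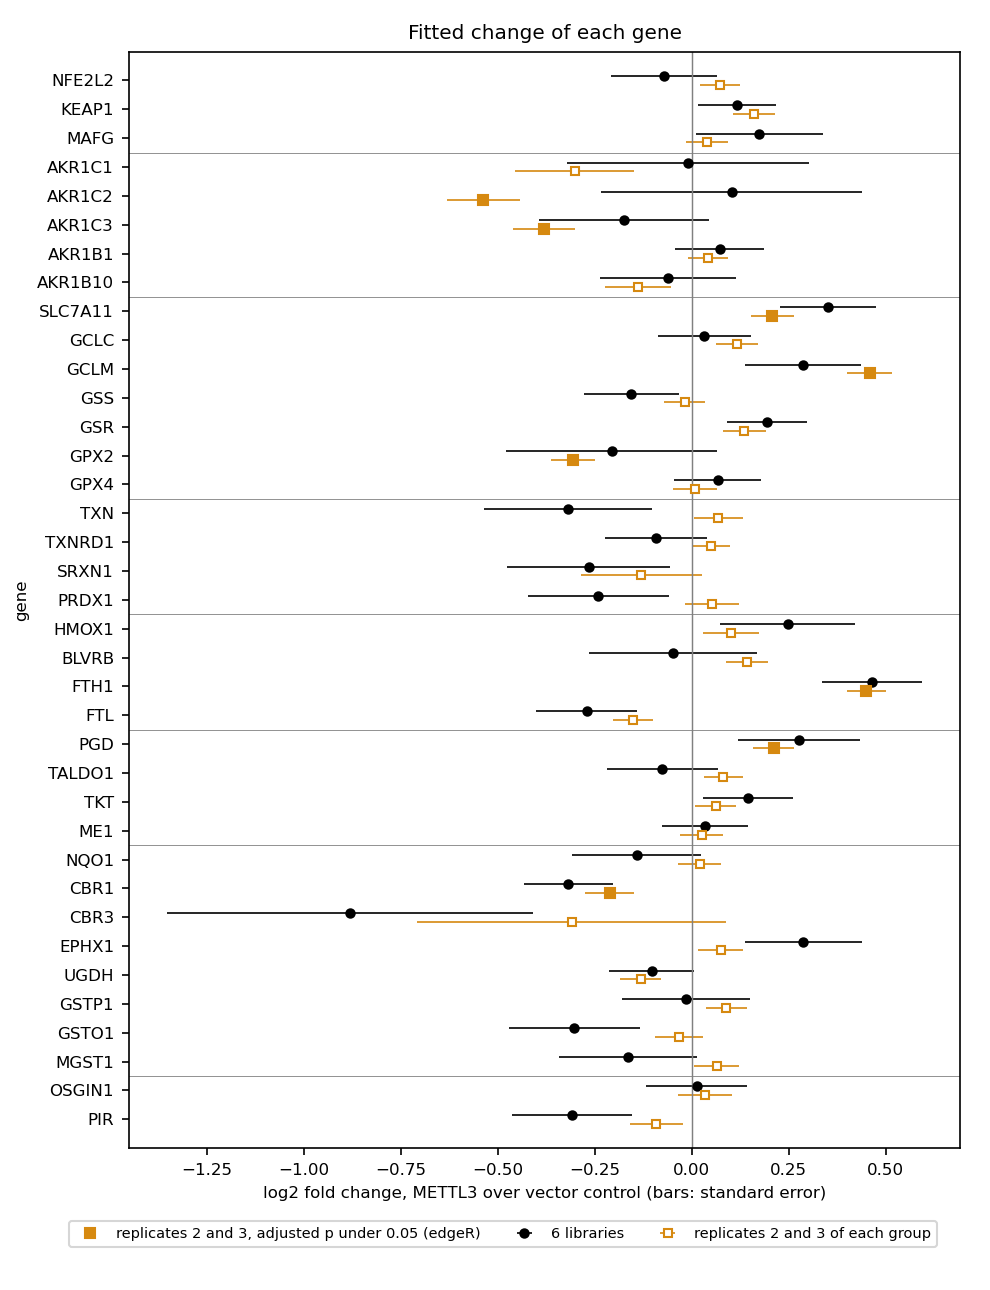
Fitted log2 fold change (METTL3 over vector control, horizontal axis) of the 37 genes by role, with bars for the standard error, from 6 libraries (black circles) and from replicates 2 and 3 of each group (orange squares, filled where the adjusted p from edgeR is under 0.05). The 8 filled squares lie on both sides of 0, and no black circle passed the test.

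Among the regulators, neither NFE2L2 nor KEAP1 passed edgeR's test without the block, over 6 libraries or over replicates 2 and 3. NFE2L2 was at 144.9, 190.8 and 192.8 CPM with METTL3 and at 191.4, 178.6 and 185.4 CPM with the vector. The METTL3 library numbered 1 was the lowest of the 6 and the other METTL3 libraries were level with the highest control, so the groups overlapped. NFE2L2 had a log2 fold change of -0.072 (SE 0.137, adjusted p = 0.889) over 6 libraries and 0.074 (adjusted p = 0.406) over replicates 2 and 3. KEAP1, the adaptor through which NRF2 is ubiquitinated, was at 86.0, 94.1 and 90.6 CPM with METTL3 and at 84.4, 84.4 and 80.8 CPM with the vector. All 3 METTL3 libraries lay above the controls, by a small margin in replicate 1. Its log2 fold change was 0.12 (SE 0.101, adjusted p = 0.742) over 6 libraries and 0.16 (adjusted p = 0.064) over replicates 2 and 3, where DESeq2 gave an adjusted p of 0.044 and the blocked fit 0.0025. MAFG, a small MAF partner of NRF2, had a log2 fold change of 0.17 (adjusted p = 0.762) over 6 libraries. Its lowest library was vector control replicate 1, at 55.5 CPM, and the other 5 lay between 79.2 and 85.8 CPM.

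Within the AKR1C genes the replicates disagreed in direction, and AKR1C2 and AKR1C3 passed, lower with METTL3, over replicates 2 and 3. The 3 genes lie side by side on chromosome 10 (GENCODE release 44, GRCh38), AKR1C1 at chr10:4963253-4983283 on the plus strand, AKR1C2 at chr10:4987775-5018031 on the minus strand and AKR1C3 at chr10:5035354-5107686 on the plus strand. AKR1C2, which inactivates dihydrotestosterone, was at 20.5, 8.13 and 8.76 CPM with METTL3 and at 10.4, 13.1 and 11.3 CPM with the vector. METTL3 replicate 1 was the highest of the 6 and METTL3 replicates 2 and 3 were the 2 lowest. Between same-numbered libraries, the log2 difference of AKR1C2 was 0.98 in replicate 1, -0.69 in replicate 2 and -0.37 in replicate 3. Over 6 libraries its log2 fold change was 0.10 (SE 0.336, adjusted p = 0.943), and over replicates 2 and 3 it fell by 0.54 (SE 0.095, adjusted p = 0.0013).

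AKR1C3, which converts androstenedione to testosterone and prostaglandin D2 to an F-type prostaglandin, was at 20.5, 12.8 and 11.7 CPM with METTL3 and at 18.9, 16.1 and 15.8 CPM with the vector. Replicate 1 was the highest in each group, and METTL3 replicates 2 and 3 lay below all controls. This came to a log2 fold change of -0.17 (SE 0.218, adjusted p = 0.825) over 6 libraries and -0.38 (SE 0.080, adjusted p = 0.0048) over replicates 2 and 3. AKR1C1, which inactivates progesterone, was the scarcest of the 3, at 4.70, 2.46 and 2.10 CPM with METTL3 and 3.70, 2.74 and 2.89 CPM with the vector, from 212 to 530 counts per library. Replicate 1 was the higher in both groups. In the fit, AKR1C1 had a log2 fold change of -0.0098 (SE 0.312, adjusted p = 0.995) over 6 libraries and -0.30 (adjusted p = 0.229) over replicates 2 and 3.

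The 3 genes share sequence. Of the 50-base windows of AKR1C2's longest transcript, 47.3% also occurred in another gene, as did 22.7% for AKR1C1 and 15.6% for AKR1C3. At 150 bases the shares were 17.2%, 7.91% and 1.75%, and the sources differ on the read length, so reads could be divided among these genes by the counting. Their counts were therefore also summed. The sum was at 45.7, 23.4 and 22.5 CPM with METTL3 and at 33.0, 31.9 and 30.01 CPM with the vector. METTL3 replicate 1 held the most, METTL3 replicates 2 and 3 the least, and the controls lay close together between them. The fitted log2 fold change was -0.051 (SE 0.258, adjusted p = 0.967) over 6 libraries and -0.43 (SE 0.066, adjusted p = 0.00038) over replicates 2 and 3. The other aldo-keto reductases did not pass over 6 libraries. AKR1B1, the aldose reductase, was at 179.4 to 215.3 CPM with a log2 fold change of 0.072 (adjusted p = 0.863), and AKR1B10 was at 12.1 to 17.3 CPM with -0.061 (adjusted p = 0.934). Over replicates 2 and 3 neither passed, at 0.041 (adjusted p = 0.675) and -0.14 (adjusted p = 0.331).

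**Figure D2:**
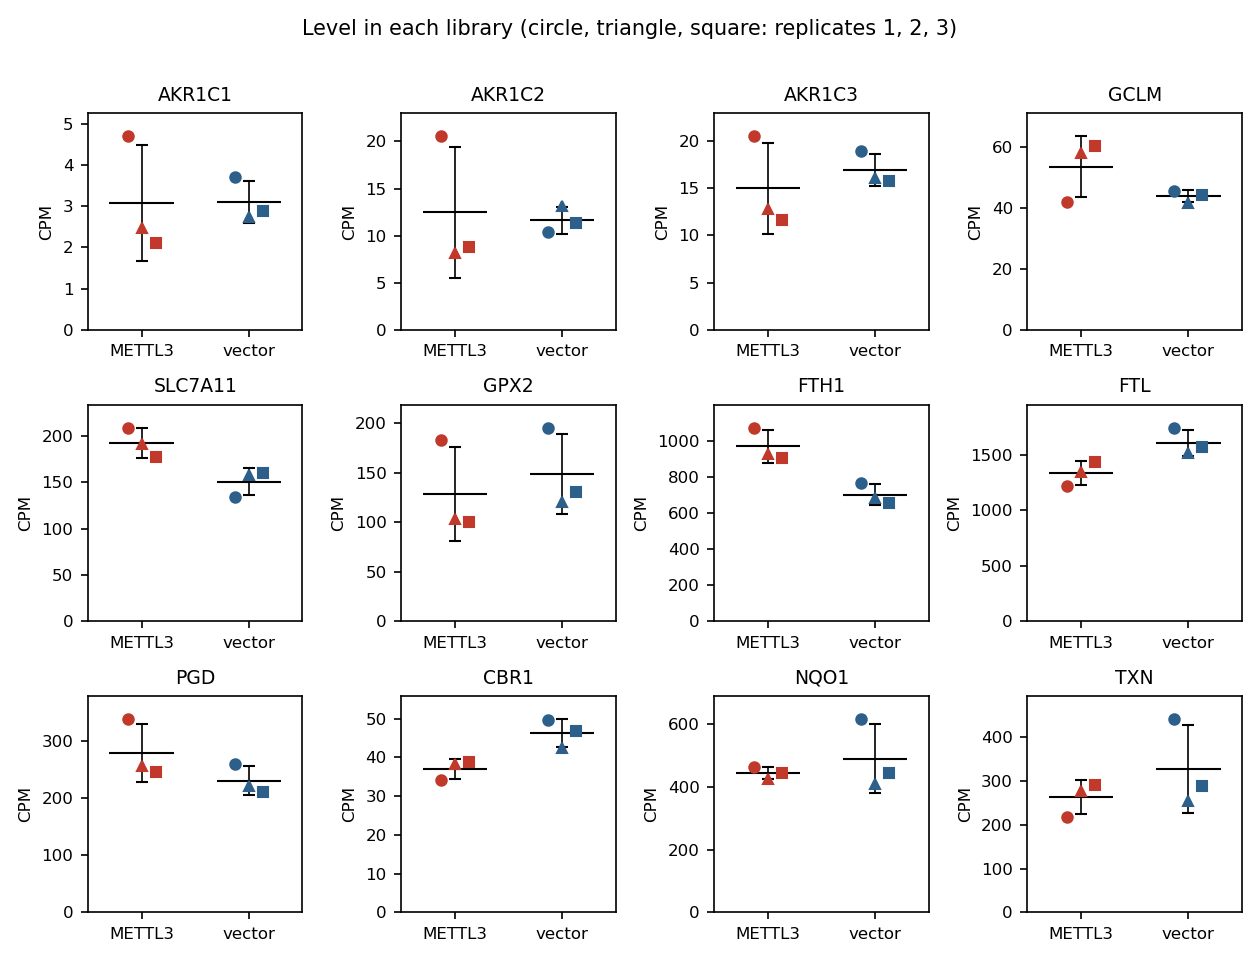
CPM (vertical axis, from 0) of 12 genes in each of the 6 libraries, METTL3-overexpressing in red and vector control in blue, with circles, triangles and squares for replicates 1, 2 and 3, lines for the group mean and bars for the SD (n = 3). For AKR1C2 the METTL3 circle, at 20.5 CPM, lies above all controls while the METTL3 triangle and square lie below them, whereas for FTH1 all 3 METTL3 symbols lie above the controls.

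In glutathione supply and use, 5 of 7 genes were higher and 2 lower over 6 libraries, and none passed. SLC7A11, the cystine importer that supplies the cysteine of glutathione, was at 208.9, 191.2 and 177.2 CPM with METTL3 and at 133.9, 158.3 and 160.3 CPM with the vector. Every METTL3 library was above every control, and the gap was widest between the libraries numbered 1. Its log2 fold change was 0.35 (SE 0.124, unadjusted p = 0.021, adjusted p = 0.551 from edgeR) over 6 libraries and 0.21 (SE 0.055, adjusted p = 0.019) over replicates 2 and 3. GCLM, the modifier subunit of glutamate-cysteine ligase, which limits the rate of glutathione synthesis, was at 42.0, 58.1 and 60.2 CPM with METTL3 and at 45.5, 41.7 and 44.2 CPM with the vector. METTL3 replicate 1 lay among the controls, and METTL3 replicates 2 and 3 lay above all of them. For GCLM the fitted log2 fold change was 0.29 (SE 0.149, adjusted p = 0.634) over 6 libraries and 0.46 (SE 0.059, adjusted p = 8.81e-05) over replicates 2 and 3.

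GPX2, a glutathione peroxidase of epithelia, was at 183.3, 102.9 and 99.9 CPM with METTL3 and at 195.3, 120.3 and 130.1 CPM with the vector. Replicate 1 was the highest in both groups, and in each same-numbered pair the METTL3 library was the lower. GPX2 had a log2 fold change of -0.21 (SE 0.272, adjusted p = 0.833) over 6 libraries and -0.31 (SE 0.057, adjusted p = 0.0020) over replicates 2 and 3. GSR, which regenerates reduced glutathione, was at 88.4 to 99.3 CPM with METTL3 and at 79.5 to 83.4 CPM with the vector, with no overlap. This came to a log2 fold change of 0.19 (adjusted p = 0.637) over 6 libraries and 0.14 (adjusted p = 0.123) over replicates 2 and 3, where the blocked fit gave an adjusted p of 0.014. GCLC, the catalytic subunit that GCLM modifies, was at 72.8 to 91.1 CPM with 0.033 (adjusted p = 0.950), GPX4, which removes lipid peroxides, was at 242.1 to 281.7 CPM with 0.067 (adjusted p = 0.871), and GSS, glutathione synthetase, was at 96.5 to 128.7 CPM with -0.16 (adjusted p = 0.718), all over 6 libraries. For both GCLC and GSS the highest library was vector control replicate 1.

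The ratio of GCLM to GCLC was taken because the pair forms 1 enzyme. It was 0.501, 0.720 and 0.753 with METTL3 and 0.499, 0.573 and 0.589 with the vector. The 2 libraries numbered 1 were nearly level, and METTL3 replicates 2 and 3 were above all controls. The log2 difference was 0.23, given as a description because the ratio was formed with the values known. An exact permutation test over the 6 libraries gave p = 0.3. With 3 libraries against 3 that test cannot give a p under 0.1, so it cannot decide here.

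Of the thioredoxin system, all 4 genes were lower with METTL3 over 6 libraries and 3 of 4 were higher over replicates 2 and 3, and none passed in either. Thioredoxin itself, TXN, was at 218.2, 277.7 and 290.3 CPM with METTL3 and at 440.0, 252.9 and 288.1 CPM with the vector. The control numbered 1 was the highest and the METTL3 library numbered 1 the lowest, and the other 4 libraries lay between 252.9 and 290.3 CPM. In the fit, TXN had a log2 fold change of -0.32 (SE 0.217, adjusted p = 0.676) over 6 libraries and 0.068 (adjusted p = 0.558) over replicates 2 and 3. TXNRD1, the reductase that recharges thioredoxin and a widely used NRF2 readout, was at 918.4, 1027 and 1006 CPM with METTL3 and at 1186, 978.7 and 983.3 CPM with the vector. It had the same layout, with the extremes in the 2 libraries numbered 1. The fitted log2 fold change was -0.093 (SE 0.132, adjusted p = 0.844) over 6 libraries and 0.050 (adjusted p = 0.582) over replicates 2 and 3. PRDX1, a peroxiredoxin that thioredoxin reduces, went from -0.24 (adjusted p = 0.708) to 0.053 (adjusted p = 0.700). SRXN1, which repairs overoxidized peroxiredoxins, had a log2 fold change of -0.27 (adjusted p = 0.720) over 6 libraries at 5.35 to 9.18 CPM, and 90.7% of its exonic bases lie within another annotated gene on the same strand, so its counts are uncertain.

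Among the genes of haem and iron, FTH1 and FTL, the heavy and light chains of the iron store ferritin, lay on opposite sides. FTH1 was at 1070, 927.9 and 902.6 CPM with METTL3 and at 763.5, 682.0 and 656.2 CPM with the vector. Every METTL3 library lay above every control, and in both groups replicate 1 was the highest. For FTH1 the fitted log2 fold change was 0.46 (SE 0.130, unadjusted p = 0.0066, adjusted p = 0.438 from edgeR) over 6 libraries and 0.45 (SE 0.050, adjusted p = 2.73e-05) over replicates 2 and 3, so its size was nearly the same without replicate 1. FTL was at 1220, 1349 and 1436 CPM with METTL3 and at 1746, 1517 and 1571 CPM with the vector. Every METTL3 library lay below every control. FTL had a log2 fold change of -0.27 (SE 0.130, adjusted p = 0.621) over 6 libraries and -0.15 (SE 0.052, adjusted p = 0.069) over replicates 2 and 3. The blocked fit of those 4 libraries gave an adjusted p of 0.00028, which rests on spread shared over genes.

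The ratio of FTH1 to FTL was 0.877, 0.688 and 0.629 with METTL3 and 0.437, 0.450 and 0.418 with the vector. The controls lay within a narrow band and every METTL3 library lay above it. The means were 0.731 ± 0.130 and 0.435 ± 0.016 (SD, n = 3), a log2 difference of 0.74, likewise given as a description. The exact permutation test gave p = 0.1, the smallest it can give, so it cannot decide here. FTH1 has many processed copies in the genome. Of the 50-base windows of its longest transcript, 41.3% also occurred in other genes, although only 0.76% of its 150-base windows did. The 25 rows of FTH1 pseudogenes together held 46.3 to 62.7 CPM with METTL3 and 27.7 to 37.5 CPM with the vector, so they also lay higher with METTL3, and their part in the FTH1 difference was not tested. Exons of other genes on the opposite strand cover 63.2% of its exonic bases.

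**Figure D3:**
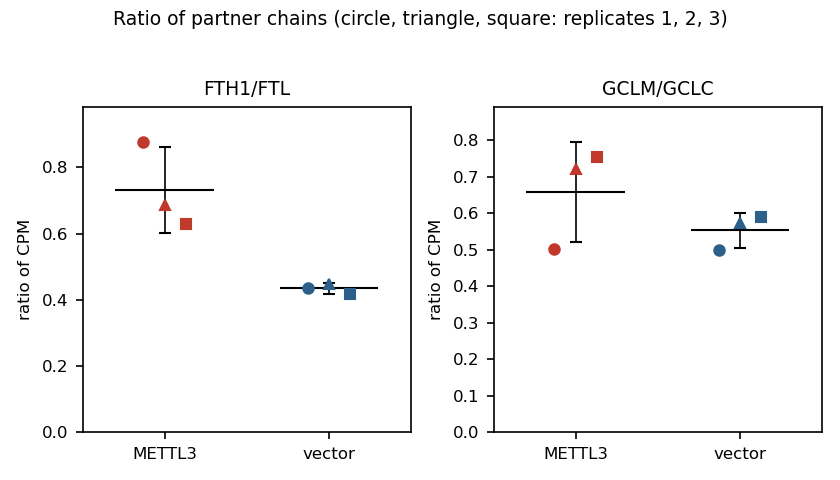
Ratio of CPM (vertical axes, from 0) of FTH1 to FTL and of GCLM to GCLC in each of the 6 libraries, METTL3-overexpressing in red and vector control in blue, with circles, triangles and squares for replicates 1, 2 and 3, lines for the mean and bars for the SD (n = 3). The FTH1 to FTL ratio is 0.629 or more in every METTL3 library and 0.450 or less in every control, whereas for GCLM to GCLC the METTL3 circle lies with the controls.

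HMOX1, haem oxygenase, is the classic stress-induced NRF2 target. It was at 25.8, 17.2 and 18.2 CPM with METTL3 and at 18.7, 16.5 and 16.5 CPM with the vector. Its highest library was METTL3 replicate 1, and the groups overlapped. In the fit, HMOX1 had a log2 fold change of 0.25 (SE 0.174, adjusted p = 0.687) over 6 libraries and 0.10 (adjusted p = 0.413) over replicates 2 and 3. BLVRB, a biliverdin reductase further along haem breakdown, was at 77.7 to 133.9 CPM, with its highest values of 107.6 and 133.9 CPM in the 2 libraries numbered 1. Its log2 fold change was -0.049 (adjusted p = 0.959) over 6 libraries and 0.14 (adjusted p = 0.102) over replicates 2 and 3, where the blocked fit gave an adjusted p of 0.010.

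Of the genes that supply NADPH, 3 of 4 were higher over 6 libraries and 4 of 4 over replicates 2 and 3, where PGD passed. PGD, which makes NADPH in the pentose phosphate pathway, was at 337.2, 254.9 and 244.7 CPM with METTL3 and at 259.4, 220.4 and 210.6 CPM with the vector. Each METTL3 library was above the control of its number, and vector control replicate 1 was above METTL3 replicates 2 and 3, so the groups overlapped. For PGD the fitted log2 fold change was 0.28 (SE 0.157, adjusted p = 0.648) over 6 libraries and 0.21 (SE 0.053, adjusted p = 0.013) over replicates 2 and 3. TKT and TALDO1, which carry the pathway's later sugar exchanges, had log2 fold changes of 0.15 (adjusted p = 0.722) and -0.076 (adjusted p = 0.888) over 6 libraries, and ME1, the cytosolic malic enzyme, had 0.034 (adjusted p = 0.943). TALDO1 was within 305.8 to 309.6 CPM in the METTL3 libraries and reached 389.7 CPM in vector control replicate 1.

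In detoxification, 7 of 8 genes were lower over 6 libraries, and 4 were lower and 4 higher over replicates 2 and 3. NQO1, the quinone reductase most often taken as the reference NRF2 target, was at 464.6, 424.8 and 443.1 CPM with METTL3 and at 615.6, 410.6 and 443.8 CPM with the vector. Vector control replicate 1 stood well above the other 5 libraries, which lay between 410.6 and 464.6 CPM. NQO1 had a log2 fold change of -0.14 (SE 0.166, adjusted p = 0.811) over 6 libraries and 0.020 (SE 0.055, adjusted p = 0.866) over replicates 2 and 3. CBR1, a carbonyl reductase that also reduces anthracyclines, was at 34.2, 38.3 and 38.8 CPM with METTL3 and at 49.6, 42.5 and 46.7 CPM with the vector. Every METTL3 library lay below every control. In the fit, CBR1 had a log2 fold change of -0.32 (SE 0.115, unadjusted p = 0.023, adjusted p = 0.559 from edgeR) over 6 libraries and -0.21 (SE 0.063, adjusted p = 0.035) over replicates 2 and 3. An overlapping annotated gene on the same strand holds 13.1% of its 150-base windows.

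The other 6 detoxification genes did not pass in either fit without the block. EPHX1, microsomal epoxide hydrolase, was the one higher over 6 libraries, at 0.29 (adjusted p = 0.636), with its highest value of 115.8 CPM in METTL3 replicate 1. GSTP1, GSTO1 and MGST1, which conjugate or reduce with glutathione, had log2 fold changes of -0.014, -0.30 and -0.16 (adjusted p = 0.988, 0.643 and 0.794), and vector control replicate 1 was the highest library for each. UGDH, which makes the UDP-glucuronic acid used in conjugation, had -0.10 (adjusted p = 0.789) over 6 libraries and -0.13 (adjusted p = 0.117) over replicates 2 and 3, with an adjusted p of 0.0097 in the blocked fit. CBR3 had the fewest counts of the 37, at 13 to 56 per library, and its log2 fold change of -0.88 (SE 0.473, adjusted p = 0.637) carried the widest error of the set. Exons on the opposite strand cover 71.1% of its exonic bases. Of the other targets, OSGIN1, which restrains growth under oxidative stress, had 0.013 (adjusted p = 0.986) and PIR, an iron-binding nuclear protein, had -0.31 (adjusted p = 0.628) over 6 libraries.

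**Figure D4:**
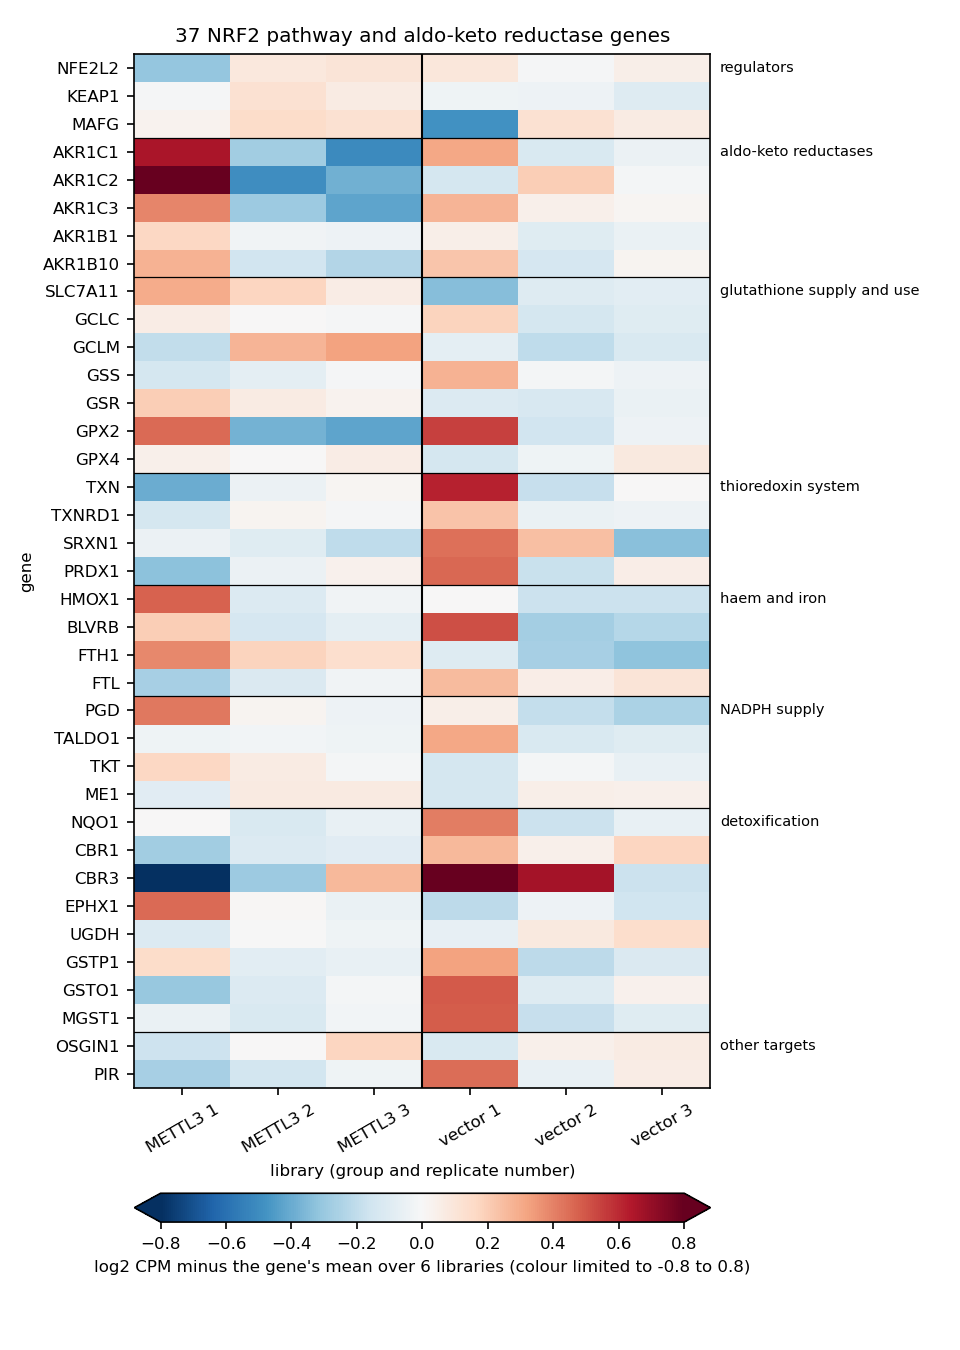
Log2 CPM of the 37 genes (rows, by role) in the 6 libraries (columns), as the difference from the gene's mean over the libraries, in red where higher and blue where lower, with the colour limited to -0.8 to 0.8. Vector control replicate 1 is the highest library for 17 of the 37 genes and METTL3 replicate 1 for 12.

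The highest value was often in a library numbered 1. Vector control replicate 1 was the highest of the 6 libraries for 17 of 37 genes (45.9%), beside 30.1% of all genes tested, and METTL3 replicate 1 for 12 (32.4%), beside 25.1%. The 17 included GCLC, TXN, TXNRD1, PRDX1, FTL, NQO1, GSTP1 and MGST1, and the 12 included AKR1C1, AKR1C2, AKR1C3, SLC7A11, HMOX1, FTH1 and PGD. The longest annotated transcript of the 17 had a median of 1539 bases, beside 2841 bases for the other 20, and the part of transcript length in the pattern was not tested. Between same-numbered libraries, 11 of 37 genes were higher with METTL3 in all 3 pairs and 6 were lower in all 3. For 13 genes the pair numbered 1 had the opposite sign of both other pairs, among them NFE2L2, AKR1C1, AKR1C2, AKR1C3, GCLC, GCLM, TXN and TXNRD1. The matching shares over all genes were not counted, so these counts cannot be read as particular to the 37. The labels do not state that same-numbered libraries are pairs. A contrast of replicate 1 against replicates 2 and 3, with the group in the model and chosen after the data were seen, called 3 of 37 (8.11%), beside 9.06% of all genes. With both directions counted, replicate 1 differed in these genes about as often as in all genes. The 3 were all higher in replicate 1, and 4.25% of all genes were called in that direction. GPX2 was higher by 0.75 on the log2 scale (adjusted p = 0.0068), AKR1C1 by 0.73 (adjusted p = 0.049) and BLVRB by 0.54 (adjusted p = 0.034). An F test over the 3 replicate numbers called 7 of all genes tested and none of the 37, whose smallest adjusted p was that of GPX2, 0.118.

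Levels of different genes were compared per length, as mean CPM over the 6 libraries per kilobase of the longest transcript. FTL led at 1692 CPM per kilobase, with libraries from 1401 to 2004. FTH1 was at 693.1, with libraries from 545.4 to 889.7, the lowest of them below the highest of TXN. TXN was at 399.6 and GSTP1 at 386.2, and these could not be ordered, since their libraries ranged from 296.1 to 597.0 and from 331.5 to 479.4. TALDO1 at 256.3 and TXNRD1 at 255.8 could not be ordered either, since their libraries ranged from 234.3 to 316.6 and from 231.1 to 298.4, nor could GPX4 at 226.1 and PRDX1 at 225.6. NQO1 was at 184.8 and GPX2 at 122.3. KEAP1 at 32.7 and NFE2L2 at 35.4 lay in the middle of the list. The AKR1C genes were low, with AKR1C3 at 11.4, AKR1C2 at 3.75 and AKR1C1 at 0.474 CPM per kilobase. CBR3 was at 0.348 and overlapped AKR1C1, with ranges of 0.116 to 0.592 and 0.321 to 0.718. By this measure AKR1C3 was the highest of the AKR1C genes, and its range of 8.30 to 14.6 did not overlap that of AKR1C2, 2.53 to 6.39. That gap rests partly on the lengths used. In METTL3 replicate 1 the raw counts were 2316 for AKR1C2 and 2313 for AKR1C3, while every other library held more counts of AKR1C3. AKR1C2 also shared more of its 50-base windows with other genes, 47.3% beside 15.6%, so the counting may lower it more. The longest transcript is 6543 bases for AKR1C1, 3215 for AKR1C2 and 1405 for AKR1C3, and a shorter isoform would raise the level.

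A wider list of 97 NRF2 pathway and redox genes, none of them among the 37, was examined in the same fits. SOD2 was not matched, and 87 of the 96 found passed the filter on low counts. Over 6 libraries edgeR called 0 of 87, and 14 of 87 (16.1%) had an unadjusted p under 0.05, beside 8.3% of all genes, 7 higher and 7 lower. DESeq2 called EPHX2 alone, 1 of the 84 to which it gave an adjusted p (1.19%), beside 1.63% of all genes. The groups did not overlap for 21 of 87 (24.1%), beside 17.4%. Over replicates 2 and 3 edgeR called 23 of 87 (26.4%), beside 15.2%, of which 13 were higher and 10 lower. The median log2 fold change was -0.024 over 6 libraries and 0.011 over replicates 2 and 3, near 0 in both.

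The 5 of the wider list with the smallest p over replicates 2 and 3 were TRIM16, ABCC4, TXNIP, ABCC1 and CAT. TRIM16, a tripartite motif protein, was at 45.2, 43.4 and 46.6 CPM with METTL3 and at 50.4, 28.5 and 30.9 CPM with the vector, and over replicates 2 and 3 it was higher by 0.60 on the log2 scale (adjusted p = 2.26e-05). Over 6 libraries TRIM16 had 0.30 (adjusted p = 0.679), and its pair numbered 1 went the other way, at -0.16. ABCC1, an exporter of glutathione conjugates and drugs, was at 328.3, 264.2 and 241.1 CPM with METTL3 and at 131.8, 203.0 and 185.8 CPM with the vector, higher by 0.38 over replicates 2 and 3 (adjusted p = 0.00066) and at 0.68 over 6 libraries (adjusted p = 0.438). The 2 transporters of the same family went opposite ways, since ABCC4, which exports cyclic nucleotides and drugs, was lower by 0.45 over replicates 2 and 3 (adjusted p = 7.88e-05) and lower in each of the 3 pairs, with -0.45 (adjusted p = 0.625) over 6 libraries. TXNIP, which binds and inhibits thioredoxin, was higher by 0.37 over replicates 2 and 3 (adjusted p = 0.00023) and at 0.32 over 6 libraries (adjusted p = 0.621). CAT, catalase, was at 63.4, 61.2 and 59.6 CPM with METTL3 and at 77.9, 75.0 and 75.1 CPM with the vector. Its groups did not overlap and its replicates 1 did not stand apart, with a log2 fold change of -0.31 (adjusted p = 0.517) over 6 libraries and -0.31 (adjusted p = 0.0011) over replicates 2 and 3.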

How the data were processed

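RNA-seq was analysed from 3 METTL3-overexpressing and 3 vector control OVCAR5 libraries. The deposited values are raw counts per gene, which the authors made by aligning reads to GRCh38 (hg38) with HISAT2 and counting with featureCounts of Subread, and fastp is also named in the submitters' processing notes. Versions, strand setting and annotation release were not given in the sources used here. Reads were paired-end from a stranded kit by the labels, but single-end from another kit by the study's methods. Between 67.6% and 70.5% of counts from 1 to 20 were even, as when both mates are counted, so counts divided by 2 were an alternative. Identifiers were named from GENCODE release 44 (60507 of 60649 rows). No row or column was left out before the filter.

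Genes that passed edgeR's filterByExpr (edgeR 4.0.16, R 4.3.3) were scaled by TMM and tested with glmQLFit (robust) and glmQLFTest, without covariates, with Benjamini-Hochberg adjustment over all genes and a threshold of 0.05. The SE was computed as |log2 fold change| divided by √F. DESeq2, which the study names without a version, ran here as version 1.42.0 on the same genes as an alternative. The adjusted p it left missing for CBR3 stayed missing. The fits were tested on simulated data. Tables were handled in Python 3.11.15. The 37 members, the wider list and the use of replicates 2 and 3 were chosen with earlier results of these data known. Genes given with every library's value were 10 fixed members, members with an unadjusted p under 0.05 over 6 libraries or an adjusted p under 0.05 over replicates 2 and 3, and at most 5 of the wider list by smallest p; TXN and FTL were added after their values were seen.

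The groups share replicate numbers. Deviations of same-numbered libraries correlated at 0.334, 0.120 and 0.175, each over the minimum of 0.1, so the block was also fitted, as the alternative for paired libraries, while the reported fits are unpaired. This rests on the values, not on the labels, and 2 pairs of unlike numbers also passed, at 0.205 and 0.133. Alternatives were DESeq2, other size factors, upper-quartile scaling, a filter of at least 10 counts in every library or none, a replicate block, counts divided by 2, summed AKR1C counts and each library left out.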

Additional observations from a re-analysis of the deposited data

How the results depend on the processing

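Over 6 libraries edgeR called 0 genes of all tested (1830 at an unadjusted p under 0.05). DESeq2 called 283, DESeq2 with no filter 213 and edgeR with no filter 560, replicates 2 and 3 gave 3362, and leaving out 1 library gave 0 to 367, the highest without vector control replicate 1. Of the 37 genes, 0 were called in the 6-library test, 1 by DESeq2 and 8 over replicates 2 and 3. With any 1 library left out 0 of the 37 were called, so the 8 came only with both libraries numbered 1 left out. At an unadjusted p under 0.05 the count was 3, and 6 with no filter (16.2%, beside 7.26% of all genes), 14 over replicates 2 and 3 (37.8%, beside 27.1%) and 1 to 5 with 1 library left out: 5 (13.5%) without METTL3 replicate 1 or 3, beside 6.06% and 6.90%, and 1 (2.70%) without METTL3 replicate 2, beside 5.66%. It was 4 (10.8%) without vector control replicate 1 or 2, beside 16.2% and 6.93%, and 3 (8.11%) without vector control replicate 3, beside 4.15%. Groups that did not overlap went from 6 to 24 over replicates 2 and 3 (64.9%, beside 54.8% of all genes) and to 8 to 16 with 1 library left out, the highest without METTL3 replicate 1 (43.2%, beside 27.3%) and the lowest without METTL3 replicate 2 (21.6%, beside 22.4%). Fewer libraries make overlap rarer. The counts were 13 without METTL3 replicate 3 (35.1%, beside 25.8%) and 14, 11 and 10 without vector control replicates 1, 2 and 3 (37.8%, 29.7% and 27.0%, beside 39.6%, 27.0% and 21.4%). The wider list went from 0 to 1 under DESeq2, with or without the filter, to 5 with no filter, to 23 over replicates 2 and 3 and to 0 to 1 with 1 library left out, the 1 being TRIM16 without vector control replicate 1. The median log2 fold change of the 37 went from -0.049 to 0.041 over replicates 2 and 3, and lay between -0.069 and 0.037 with 1 library left out. METTL3 itself passed at 1.18 under DESeq2, 1.18 with no filter and 1.28 over replicates 2 and 3, and its log2 fold change was 1.13 to 1.23 with 1 library left out, where it passed without vector control replicate 1.

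Of 143 alternatives to the values of single genes, 121 kept sign and side of the threshold, 3 newly passed with the same sign (AKR1C3, GCLM and SLC7A11 over replicates 2 and 3) and 19 turned sign, among them AKR1C2, which also newly passed over replicates 2 and 3. The log2 fold change of AKR1C1 was 0.0069 under DESeq2, 0.0070 with its size factors, 0.0007 with upper-quartile scaling, 0.011 with no filter, 0.017 with at least 10 counts, 0.014 with counts divided by 2 and -0.42 to 0.22 with 1 library left out. That of AKR1C2 was -0.032 with the replicate block, -0.54 over replicates 2 and 3, -0.051 for the summed AKR1C counts and -0.44 to 0.35 with 1 library left out. Over replicates 2 and 3 and with 1 library left out, NFE2L2 was at 0.074 and -0.12 to 0.071, NQO1 at 0.020 and -0.22 to 0.056, and TXNRD1 at 0.050 and -0.11 to 0.0042. AKR1C1 turned positive without METTL3 replicate 2 or 3 or vector control replicate 1, AKR1C2 negative and NFE2L2 positive without METTL3 replicate 1, and NQO1 and TXNRD1 positive without vector control replicate 1; the cause was not tested. With the replicate number as a block, 0 of the 37 and 0 of all genes were called over 6 libraries, and over replicates 2 and 3 the paired fit called 14 of the 37; the block changed no other call of the 37. The F test of replicate numbers called 7 genes, and replicate 1 against the others 1997. The log2 difference of the FTH1 to FTL ratio was 0.60 to 0.84 with 1 library left out, and that of GCLM to GCLC 0.12 to 0.42. CBR3 and AKR1C1 had the fewest counts of the 37, at 13 to 56 and 212 to 530 per library.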

Other observations

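Of the transporters in the wider list, ABCC1, ABCC3, SLC6A6 and SLC6A9 had their widest gap in the pair numbered 1, whereas ABCC4 was lower with METTL3 in every pair. These genes were chosen after their values were seen. ABCC3, a bile salt and conjugate exporter, was at 455.4, 333.8 and 318.7 CPM with METTL3 and at 213.2, 297.2 and 266.1 CPM with the vector. SLC6A6, the taurine importer, was at 281.2, 185.4 and 174.2 CPM with METTL3 and at 121.1, 158.2 and 156.5 CPM with the vector. SLC6A9, a glycine importer, was at 17.1, 9.21 and 8.01 CPM with METTL3 and at 4.51, 7.65 and 6.09 CPM with the vector. In each of these genes the METTL3 libraries lay above the controls, METTL3 replicate 1 was the highest library and vector control replicate 1 the lowest. The log2 difference within the pairs numbered 1, 2 and 3 was 1.09, 0.17 and 0.26 for ABCC3, 1.22, 0.23 and 0.15 for SLC6A6, and 1.92, 0.27 and 0.39 for SLC6A9. ABCC1 had 1.32, 0.38 and 0.38. Over 6 libraries the adjusted p from edgeR was 0.553 for ABCC3, 0.562 for SLC6A6, 0.547 for SLC6A9 and 0.438 for ABCC1. With no filter on low counts edgeR called these 4 genes and EPHX2 of the wider list, beside 560 of all 43096 genes.

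EPHX2, the soluble epoxide hydrolase, went the other way from its microsomal counterpart EPHX1. It was scarce, at 0.426, 0.460 and 0.723 CPM with METTL3 and 1.05, 1.42 and 1.29 CPM with the vector, and its groups did not overlap. Its log2 fold change was -1.23 (SE 0.281, adjusted p = 0.395 from edgeR) over 6 libraries and -1.21 (SE 0.254, adjusted p = 0.0046) over replicates 2 and 3, and DESeq2 gave an adjusted p of 0.012 over 6 libraries. EPHX2 was chosen after its values were seen, and the difference between the 2 hydrolases was not tested.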
